A study of Nasonia vitripennis with 6 samples.

Results

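Cells move newly made proteins from the endoplasmic reticulum (ER) through the Golgi to the cell surface, the lysosome or back again in small coated vesicles. The genes of that transport are described here in 2 tissues of the parasitoid wasp *Nasonia vitripennis*, the venom gland (VG) and the ovary. The genes were taken from the deposited table by words in its annotation column, such as coatomer, clathrin, exocyst, syntaxin, vesicle, golgi, sorting nexin and vacuolar protein sorting, with rows that name Sec61 or Rab left out. The 13 words took 147 of the 36329 genes of the official gene set (OGS2) of the species, of which 13820 carry an annotation other than unknown.

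RNA came from VGs (3 replicates) and from ovaries (3 replicates) of LABII strain females that were 1 to 3 days old, mated and had met hosts. Each replicate pooled the tissue of 40 to 50 wasps. No treatment or mutation separated the groups, and the wasps were hosted on *Lucilia sericata* pupae. The VG makes the venom, which collects in a reservoir before the female injects it into the host, and the ovary makes the eggs and does not produce venom. In bulk tissue, fewer cells of a type and less RNA per cell cannot be told apart.

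As background, COPII coats form vesicles that leave the ER, and COPI coats form vesicles that return material from the Golgi to the ER and between Golgi cisternae. Clathrin with its adaptors AP-1 and AP-2 serves the trans-Golgi network and the plasma membrane, and AP-3 serves traffic to lysosome-related organelles. Tethers (TRAPP, COG, golgins, GARP, HOPS, CORVET and the exocyst) hold an arriving vesicle at its target, and SNAREs, which include the syntaxins, then fuse the membranes. ESCRT complexes, retromer and the sorting nexins sort cargo at endosomes. In gland cells that secrete much protein, the ER and Golgi steps of this route are known to be prominent.

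The table gives 1 mean per tissue for each gene, the authors' mean over 3 libraries of read counts scaled by DESeq size factors and not divided by gene length. Levels are therefore compared here between tissues for the same gene and not between genes. A log2 ratio sets the VG mean over the ovary mean, so that 1 stands for a level 2-fold higher in the VG. Where a tissue mean is low enough, it can be taken apart into the whole reads of its 3 libraries, named here VG library a, b or c and ovary library a, b or c. These letters carry no link to the replicate numbers. For 93 of the 135 members that passed the filter on low values, an average of 10 over both tissue means, all 3 VG libraries were recovered, and for 18 members all 6 libraries were recovered. For the others no spread over replicates can be given, and the error printed is a 95% interval for counting error only.

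The size factors and the summed means place the average depth between 15826300 and 28934200 counted reads for a VG library and between 24519300 and 27549200 for an ovary library. The 3 venom markers summed to 8743160 normalised counts in the VG against 250 in the ovary, and the 6 ovary markers (among them *vasa*, *nanos* and *oskar*) to 3824 against 70806. The 6 neuron markers summed to 5822 in the VG against 7879 in the ovary, the 4 muscle markers to 12110 against 23598, the 2 blood cell markers to 363 against 41.5, and the 3 fat body markers to 116499 against 9202, of which vitellogenin gave 107535 against 8422. Synaptotagmin 1 (3217 against 181), complexin (379 against 56.6) and synapsin (99.3 against 41.9) were higher in the VG. The neuron markers *elav* (889 against 4972), choline O-acetyltransferase (78.6 against 852) and neurexin (1159 against 1775) were lower. Of the muscle markers, troponin was higher (2202 against 1083). Myosin heavy chain (4923 against 16919), tropomyosin (3659 against 4182) and titin (1326 against 1413) were lower. None of these lists was at 0 in either tissue, and the part of other cell types in the values below was not tested.

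The VG libraries differed among themselves, b the most often and then c. Among the 93 members with VG libraries recovered, library b was the highest or the lowest of the 3 for 82 (88.2%, against 80.9% of the 8318 recovered genes of the whole table), library c for 73 (78.5%, against 67.1%) and library a for 31 (33.3%, against 49.7%). Between the VG libraries the median coefficient of variation was 22.5% for the 82 members with a VG mean of 100 to 1000, against 7.11% between the ovary libraries for the 6 members with an ovary mean of 50 to 300. Over all recovered genes in these ranges it was 20.2% (4704 genes) in the VG and 9.81% (1353 genes) in the ovary. The ranges and the genes in them differ between the tissues. Without VG library b, 13 of the 93 members were 2-fold or more higher in the VG and 22 were 2-fold or more lower, against 16 and 17 with all libraries, 16 and 17 without library a, and 16 and 16 without library c. Of the 33 recovered members at a 2-fold difference in either direction, 8 lost it without 1 of the libraries, and these are named below.

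The scaling sets the direction of most of these genes. The VG means of all genes sum to 55159300 normalised counts against 10662100 in the ovary, and 923 genes with a log2 ratio of 5 or more hold 76.0% of the VG sum and 0.276% of the ovary sum. With each tissue divided by its total over all genes, every log2 ratio is 2.37 lower, and with those 923 genes left out of the totals it is 0.32 lower. The median log2 ratio of all 10689 genes past the filter was -0.16 on the deposited scale, -2.53 with totals of all genes and -0.48 with totals that leave out the 923 genes. Differences between groups of genes do not depend on this choice. Directions given below are on the deposited DESeq scale, and a log2 ratio between 0 and 2.37 turns negative with totals of all genes.

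Of the 147 members, 7 had no read in any library, 5 had an average under 10, and 135 passed the filter. On the deposited scale 34 of the 135 were 2-fold or more higher in the VG (25.2%), where the same share of all genes was 31.1%, and 17 were 2-fold or more lower (12.6%), where the share of all genes was 34.2%. Under this scaling, differences of 2-fold in either direction were not more frequent among the members than in the whole table. With totals that leave out the 923 genes, 24 members were 2-fold or more higher (17.8%, against 27.3% of all genes) and 33 were 2-fold or more lower (24.4%, against 40.2%). With totals of all genes, 7 were 2-fold or more higher (5.19%, against 12.4%), and 111 were 2-fold or more lower, which was more frequent among the members (82.2%) than in the whole table (73.3%). The median log2 ratio of the members was 0.24, which lies 0.40 above the median of all genes under each of the scalings. On the deposited scale 81 members lay above 0 and 54 below, where 46.6% of all genes lay above 0 and 53.4% below. Of those 81, 62 stayed above 0 with totals that leave out the 923 genes (45.9% of the members, against 41.1% of all genes), and 8 stayed above 0 with totals of all genes (5.93%, against 17.9%).

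**Figure D1:**
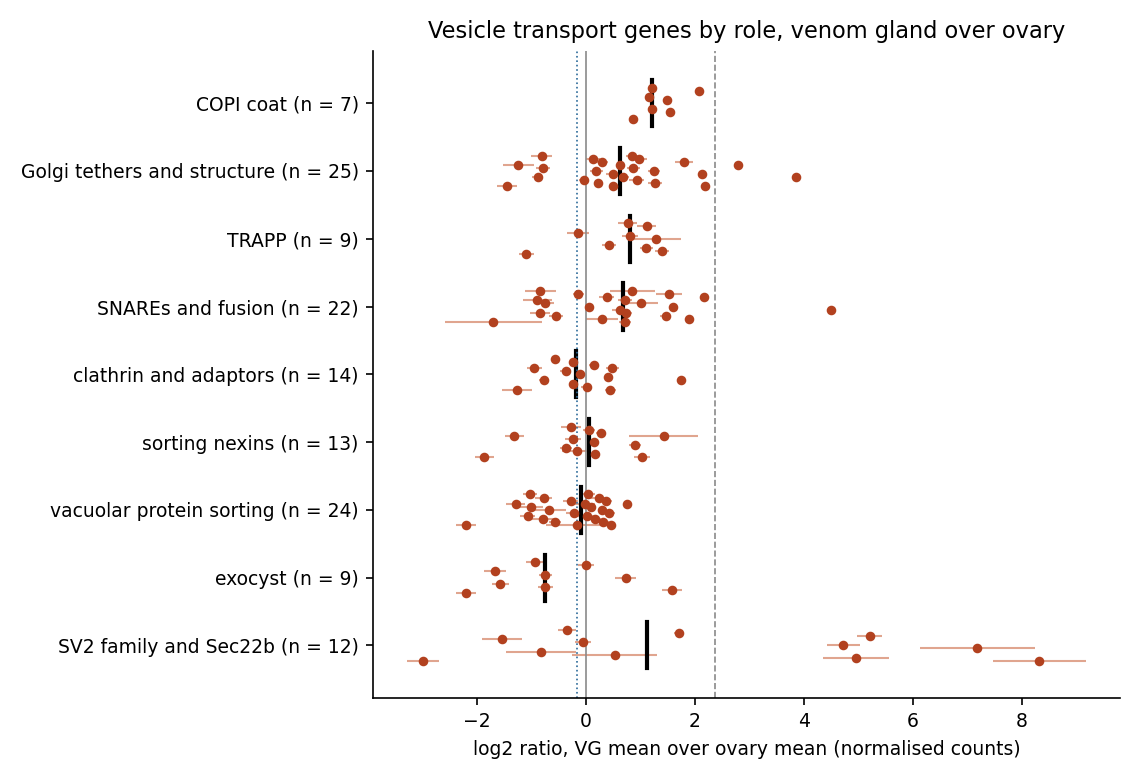
Log2 ratio, VG mean over ovary mean (horizontal axis, DESeq-normalised counts), for the 135 members by role. Each point is a gene with its 95% interval for counting error, the black bar is the median of the role, the solid grey line is 0, the dotted blue line is the median of all genes (-0.16) and the dashed line at 2.37 is where 0 lies if each tissue is divided by its total over all genes. The COPI coat lies wholly to the right of 0 and to the left of the dashed line, the exocyst lies mostly to the left of 0, and the SV2 family reaches both ends.

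The coat genes of the early route were higher in the VG on the deposited scale. All 7 COPI coat genes past the filter, which between them cover every coatomer subunit, had log2 ratios from 0.87 to 2.07, with a median of 1.22, and each lay above 0 by more than its counting error. With totals that leave out the 923 genes all 7 stayed above 0 with a median of 0.90, and with totals of all genes all 7 lay below 0 with a median of -1.15. The median lay 1.38 above that of all genes.

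Among the subunits of the COPI coat, the zeta-1 subunit (Nasvi2EG012575) had a mean of 4416 normalised counts in the VG against 1052 in the ovary, a log2 ratio of 2.07 (95% interval for counting error 2.01 to 2.13). Epsilon (Nasvi2EG000165) had 3023 in the VG against 1037 in the ovary, and gamma (Nasvi2EG016029) had 6535 against 2339, log2 ratios of 1.54 and 1.48. The delta subunit (Nasvi2EG001089) had 3169 in the VG against 1375 in the ovary, a log2 ratio of 1.20. Beta (Nasvi2EG009276) had 8815 against 3791 (1.22), beta' (Nasvi2EG016138) 6471 against 2894 (1.16) and alpha (Nasvi2EG024142) 6159 against 3366 (0.87, interval 0.83 to 0.91). The eighth row, a second fragment annotated as delta (Nasvi2EG036344), had no read in the VG libraries and 2 reads in the ovary libraries.

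The rule took no gene of the COPII coat, because the table words these as transport protein Sec23A and the like. The 9 such rows were added as a list after the values had been seen, and 1 of them had no read. Of the 8 that passed the filter 5 were 2-fold or more higher in the VG (62.5%, against 31.1% of all genes). None was 2-fold or more lower, where 34.2% of all genes were. The median was 1.27 on the deposited scale and -1.10 with totals of all genes. The inner coat protein Sec23A (Nasvi2EG003578) had 11740 in the VG against 4305 in the ovary (log2 ratio 1.45), and the outer coat proteins Sec13 (Nasvi2EG026502) and Sec31A (Nasvi2EG019915) had 7293 against 2102 (1.79) and 4962 against 2311 (1.10). The cargo-binding Sec24 proteins did not all lie on the same side. Of the genes annotated as Sec24C, Nasvi2EG009097 had 5979 in the VG against 1792 in the ovary (1.74) and Nasvi2EG005387 had 951 against 1647 (-0.79), while Sec24B (Nasvi2EG006635) had 1855 against 1704 (0.12). Sec16A (Nasvi2EG003640), which marks the exit sites of the ER, had 5120 against 3903 (0.39), and the SEC23-interacting protein (Nasvi2EG005732) had the largest ratio of the list, 2.24, with 6553 against 1384.

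The pair of cargo receptors among the members had larger ratios than any coat gene. ERGIC3 (Nasvi2EG023748), whose yeast counterpart Erv46 cycles between the ER and the Golgi with cargo, had 4659 normalised counts in the VG against 322 in the ovary, a 14.5-fold difference and a log2 ratio of 3.85 (interval 3.78 to 3.93). ERGIC2 (Nasvi2EG018634), whose yeast counterpart Erv41 is the partner of Erv46, had 4283 against 617, a log2 ratio of 2.80. Both stayed above 0 under each of the 3 other scalings. The same held for ERGIC-53 (Nasvi2EG002131), a lectin that carries glycoproteins out of the ER and that the rule did not take, with 17370 in the VG against 2240 in the ovary (2.96). All 4 transmembrane emp24 domain genes, the p24 cargo receptors of both coats, were 2-fold or more higher in the VG on the deposited scale. Their log2 ratios ran from 1.84 to 3.49, and 3 of the 4 stayed above 0 with totals of all genes. Among all genes 31.1% were 2-fold or more higher, and 17.9% lay above 0 with totals of all genes.

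The machinery one step earlier, at the ER membrane, showed the same direction on the deposited scale. Of 17 genes for the Sec61 channel, signal peptidase and the signal recognition particle, 14 were 2-fold or more higher in the VG (median 1.71). This was 82.4% of them, against 31.1% of all genes. None was lower by that amount, where 34.2% of all genes were. With totals of all genes 6 of the 17 stayed above 0, where 17.9% of all genes lay above it. A further 19 genes past the filter are annotated as ADP-ribosylation factors or their partners, which include the small GTPases that recruit COPI. Of these 8 were 2-fold or more higher in the VG (42.1%, against 31.1% of all genes). Another 5 were 2-fold or more lower (26.3%, against 34.2%). ADP-ribosylation factor 1 (Nasvi2EG023023) had 5342 in the VG against 3257 in the ovary (0.71). The guanine nucleotide exchange factor annotated as Golgi-specific brefeldin A-resistance factor (Nasvi2EG002432), which activates such GTPases for COPI, is a member and had 3261 against 2111 (0.63). Both of these turn negative with totals of all genes.

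**Figure D2:**
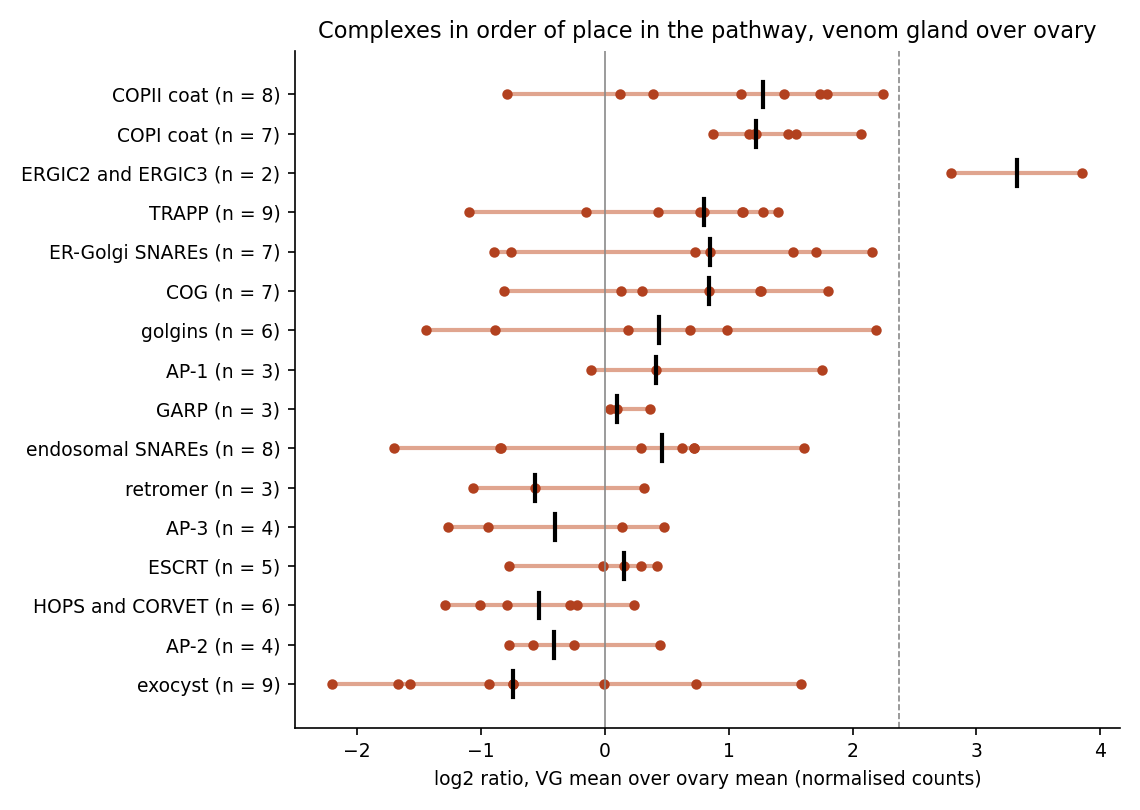
Log2 ratio, VG mean over ovary mean (horizontal axis, DESeq-normalised counts), for 16 complexes or sets, from the ER at the top to the plasma membrane at the bottom. Points are genes past the filter, the pale line is their range, the black bar their median, the solid grey line is 0 and the dashed line at 2.37 is where 0 lies with totals of all genes. Medians are 1.27 for COPII, 1.22 for COPI and -0.74 for the exocyst, and among the genes drawn only ERGIC2 and ERGIC3 lie to the right of the dashed line. Of the lists outside the rule only COPII is drawn. Genes not drawn that would also lie there include the members syntaxin-binding protein 5 (4.50) and 5 genes of the SV2 family (4.72 to 8.32). Outside the rule they include ERGIC-53 (2.96) and Vps25 of ESCRT-II (2.48).

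The members with Golgi names other than SNAREs include 25 genes past the filter. They hold tethers and structure proteins, but also ERGIC2, ERGIC3, the exchange factor above and others that are neither. On the deposited scale 19 of the 25 lay above 0 (median 0.63), where 46.6% of all genes did. With totals of all genes 2 did, which were ERGIC2 and ERGIC3, against 17.9% of all genes. Of the 25, 7 were 2-fold or more higher in the VG (28%, under the 31.1% of all genes) and 2 were 2-fold or more lower (8%, against 34.2%). The next highest after ERGIC2 and ERGIC3 were a tether and a stacking protein. Golgin subfamily A member 2 (Nasvi2EG012635), the cis-Golgi tether GM130, had 2685 in the VG against 589 in the ovary (log2 ratio 2.19). Golgi reassembly-stacking protein 2 (Nasvi2EG003911), which links cisternae into stacks, had 6495 against 1477 (2.14). Both ratios are positive on the deposited scale and negative with totals of all genes.

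Other members with Golgi names lay on the other side. Golgin IMH1 (Nasvi2EG030315), a trans-Golgi tether in yeast, had 275, 309 and 303 in VG libraries a, b and c against an ovary mean of 804 (-1.44), and golgin subfamily A member 7B (Nasvi2EG000356), whose mammalian counterpart is a partner of palmitoyltransferases rather than a tether, had 128, 124 and 115 against 290 (-1.25). In both, each VG library lay well below the ovary mean. The 6 golgins ranged from -1.44 to 2.19, so that the family spanned both directions.

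The COG complex tethers vesicles moving back within the Golgi. Of its 7 genes past the filter 6 lay above 0 on the deposited scale (46.6% of all genes), with a median of 0.84. With totals of all genes none did (17.9% of all genes), and the median of the complex was -1.53. Subunit 4 (Nasvi2EG003823) had 438, 602 and 411 in VG libraries a, b and c against an ovary mean of 139, a log2 ratio of 1.80. Subunits 7 (Nasvi2EG022178) and 8 (Nasvi2EG010546) followed at 1.25 and 1.26. Subunits 3 and 6 had VG libraries on both sides of the ovary mean, and without VG library b neither lay above 0. Subunit 2 (Nasvi2EG005803) was the exception below 0, with 238, 349 and 178 in the VG against 448 in the ovary (-0.81).

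TRAPP, which tethers ER-derived vesicles and activates Rab GTPases at the Golgi, had a median log2 ratio of 0.80 over 9 genes on the deposited scale and -1.57 with totals of all genes. On the deposited scale 7 genes lay above 0, where 46.6% of all genes did. For 6 genes all 3 VG libraries lay above the ovary mean. The share of all recovered genes with all VG libraries above the ovary mean was 31.6%, and the share with all of them below was 53.9%. Subunit 5 (Nasvi2EG024739) had 621, 917 and 805 in VG libraries a, b and c against an ovary mean of 297 (1.40). For the gene annotated only as a subunit (Nasvi2EG003710), the VG libraries had 51.5, 79.9 and 34.9 and the ovary libraries 21.7, 25.5 and 21.3, so that the tissues did not overlap, at a log2 ratio of 1.28. Without VG library b this ratio was 0.92, and subunit 1 (Nasvi2EG001181) likewise fell under 2-fold without that library. Subunit 6B (Nasvi2EG020290) had 215, 271 and 247 against 272 (-0.15). Subunit 10 (Nasvi2EG004438), which marks the TRAPP II form of the complex, stood apart from the others with 503, 493 and 551 against 1101, a log2 ratio of -1.09.

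The next group holds 22 genes past the filter, SNAREs and other genes with SNARE, syntaxin or vesicle names. It takes in genes that are no SNAREs, such as SFT2B (Nasvi2EG009938), GOT1B and the VAMP-associated protein A (Nasvi2EG020128), and leaves out Sec22b. In the VG 7 of the 22 were 2-fold or more higher (31.8%, which is near the 31.1% of all genes). Only 1 was 2-fold or more lower (4.55%, against 34.2% of all genes). The median was 0.67 on the deposited scale and -1.70 with totals of all genes. The highest by far was syntaxin-binding protein 5 (Nasvi2EG011225), known as tomosyn, which in mammals and in worms binds plasma membrane syntaxin and holds back fusion. It had 7676 normalised counts in the VG against 338 in the ovary, a 22.7-fold difference and a log2 ratio of 4.50 (interval 4.44 to 4.57). This ratio stayed above 0 under each scaling. Its partner in other animals, syntaxin-1A (Nasvi2EG009300), was not higher in the VG, with 482, 642 and 565 in VG libraries a, b and c against an ovary mean of 823 (-0.55). Syntaxin-1B was under the filter in both tissues.

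NSF (vesicle-fusing ATPase 1, Nasvi2EG014976), which takes spent SNARE complexes apart, had 1163 in the VG against 1281 in the ovary (-0.14). Of the adaptor proteins that bring NSF to them, which are no members, the soluble NSF attachment protein (Nasvi2EG026339) had 970 against 1215 (-0.32) and its gamma form (Nasvi2EG015048) 2924 against 365 (3.00). The membrane protein GOT1B (Nasvi2EG007300), whose yeast counterpart acts in ER to Golgi transport, had 2765 against 745 (1.89, and negative with totals of all genes).

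The SNAREs of the ER and Golgi had a median of 0.85 over 7 genes on the deposited scale and -1.52 with totals of all genes. These 7 include Sec22b, which the group of 22 genes above leaves out. Syntaxin-5 (Nasvi2EG007331), the syntaxin of the cis-Golgi, had 5658 in the VG against 1266 in the ovary (2.16). Its partner Sec22b (Nasvi2EG003639), annotated as a vesicle-trafficking protein, had 1911 against 585 (1.71). Golgi SNAP receptor complex member 1 (Nasvi2EG027425) had 217, 200 and 240 in VG libraries a, b and c against 81.3, 72.5 and 75.2 in ovary libraries a, b and c, with no overlap and a log2 ratio of 1.52. All 3 turn negative with totals of all genes.

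The SNAREs that serve the return of vesicles to the ER split. USE1 (Nasvi2EG013259) had 47.7, 93.3 and 59.2 in the VG libraries against 39.5, 35.2 and 36.5 in the ovary libraries, again without overlap (0.85). Its complex partners lay on the other side, SEC20 (Nasvi2EG022248) at 83.9, 182 and 150 against an ovary mean of 258 (-0.89) and syntaxin-18 (Nasvi2EG030082) at 238, 275 and 453 against 546 (-0.76). For Golgi SNAP receptor complex member 2 (Nasvi2EG007417), at 519, 1201 and 477 against 442, the log2 ratio of 0.73 was 0.17 without VG library b. The vesicle-associated membrane protein Nasvi2EG015142 had 128, 180 and 38.3 in the VG libraries against 51.5, 64.8 and 56.1 in the ovary libraries, and its log2 ratio of 1.01 fell under 1 without VG library a or b or without ovary library a or c.

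The 8 SNAREs of endosomes that passed the filter centred on 0.46 on the deposited scale and on -1.91 with totals of all genes. The copies with the same annotation did not go together. The syntaxin-12 gene Nasvi2EG015050 had 2175 in the VG against 715 in the ovary (1.60), and the other syntaxin-12 gene Nasvi2EG009199 had 324, 224 and 355 in VG libraries a, b and c against 541 (-0.85). Of the genes annotated as Vti1b, Nasvi2EG002449 had 11.4, 11.1 and 13.9 in the VG libraries against 41.4, 39.3 and 37.8 in the ovary libraries (-1.70, interval -2.59 to -0.81) and Nasvi2EG003236 had 83.9, 180 and 97.6 against 97.5, 101 and 96.1, which overlap. The positive ratio of Nasvi2EG015050 turns negative with totals of all genes. A read can match more than 1 of several close copies with the same annotation, and how such reads bear on these counts was not tested. The 4 SNARE rows worded in other ways, among them synaptobrevin (Nasvi2EG015143, 1922 in the VG against 2084 in the ovary, -0.12) and YKT6 (Nasvi2EG021455, 1157 against 609, 0.93), had no 2-fold difference in either direction.

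Clathrin and its adaptors differed little between the tissues on the deposited scale. Of 14 genes past the filter, 12 lay within 2-fold, where 3712 of the 10689 genes of the whole table did. The median was -0.18, which is close to the -0.16 of all genes. With totals of all genes the median was -2.55 and none of the 14 lay above 0, where 17.9% of all genes did. The clathrin heavy chain (Nasvi2EG005072), which builds the lattice of the coat, had 6973 in the VG against 8268 in the ovary (-0.25). The clathrin light chain (Nasvi2EG010818) had no read in any of the 6 libraries. Whether its gene model or the counting missed reads of this gene was not tested.

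AP-1 of the trans-Golgi network had a median of 0.41 over 3 genes on the deposited scale and -1.96 with totals of all genes, with the sigma-2 subunit (Nasvi2EG010561) at 2722 in the VG against 810 in the ovary (1.75, the only adaptor gene at 2-fold or more higher, and negative with totals of all genes). AP-2 of the plasma membrane had a median of -0.41 over 4 genes, 3 of them below 0 (53.4% of all genes). No member is annotated as a beta subunit of AP-1, and the beta row (Nasvi2EG004375, -0.25) is counted with AP-2 alone, by its annotation. The AP-2 alpha subunit (Nasvi2EG005420) had 1307 against 2238 (-0.78) and the mu-1 subunit (Nasvi2EG009250) 2549 against 3802 (-0.58). AP-3 had a median of -0.40 over 4 genes. Its mu-1 subunit (Nasvi2EG026906) had 130, 77.7 and 167 in VG libraries a, b and c against an ovary mean of 300 (-1.27), delta-1 (Nasvi2EG002724) had 536, 753 and 429 against 1104 (-0.95), and sigma-2 (Nasvi2EG022226) had 740, 600 and 934 against 543 (0.48). In the first 2 of these AP-3 genes every VG library lay below the ovary mean. Dynamin (Nasvi2EG009851), which pinches off clathrin vesicles and is no member, had 1468 in the VG against 2725 in the ovary (-0.89).

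The exocyst, the tether that holds secretory vesicles at the plasma membrane, lay mostly below 0 on the deposited scale. Its 9 genes had a median log2 ratio of -0.74, which is 0.58 below the median of all genes and 1.96 below that of COPI, and these differences do not depend on the scaling. Of the 9, 7 lay below 0 on the deposited scale, where 53.4% of all genes did. In the VG 3 were 2-fold or more lower (33.3%, which is near the 34.2% of all genes). Only 1 was 2-fold or more higher (11.1%, against 31.1%). For all 9 the VG libraries were recovered, and for 6 of them each VG library lay below the ovary mean, for 2 each lay above, and for 1 they lay on both sides. Among all recovered genes each VG library lay below the ovary mean for 53.9%.

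Component 2 (Nasvi2EG006603, Sec5) had 271, 353 and 199 normalised counts in VG libraries a, b and c against an ovary mean of 1260, a 4.60-fold difference and a log2 ratio of -2.20 (interval -2.39 to -2.01). Component 6 (Nasvi2EG009054, Sec15), which binds the Rab of the arriving vesicle, had 257, 244 and 216 against 762 (-1.67). Component 3 (Nasvi2EG028095, Sec6) had 379, 373 and 415 against 1161 (-1.58). For all 3 the highest VG library was far below the ovary mean, and they stayed 2-fold or more lower without any 1 VG library. Components 1, 4 and 5 were lower in the VG by less than 2-fold (-0.93, -0.74 and -0.74), and component 7 (Nasvi2EG000949) had 517, 486 and 453 against 488, on both sides of it.

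The exception in the exocyst was component 8 (Exo84). Of the genes with this annotation, Nasvi2EG022986 had 406, 349 and 436 in VG libraries a, b and c against 140, 133 and 125 in ovary libraries a, b and c, with no overlap and a log2 ratio of 1.58. The other, Nasvi2EG025406, had 280, 280 and 345 against an ovary mean of 181 (0.73). Both turn negative with totals of all genes. No other exocyst component had a positive ratio on the deposited scale.

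**Figure D3:**
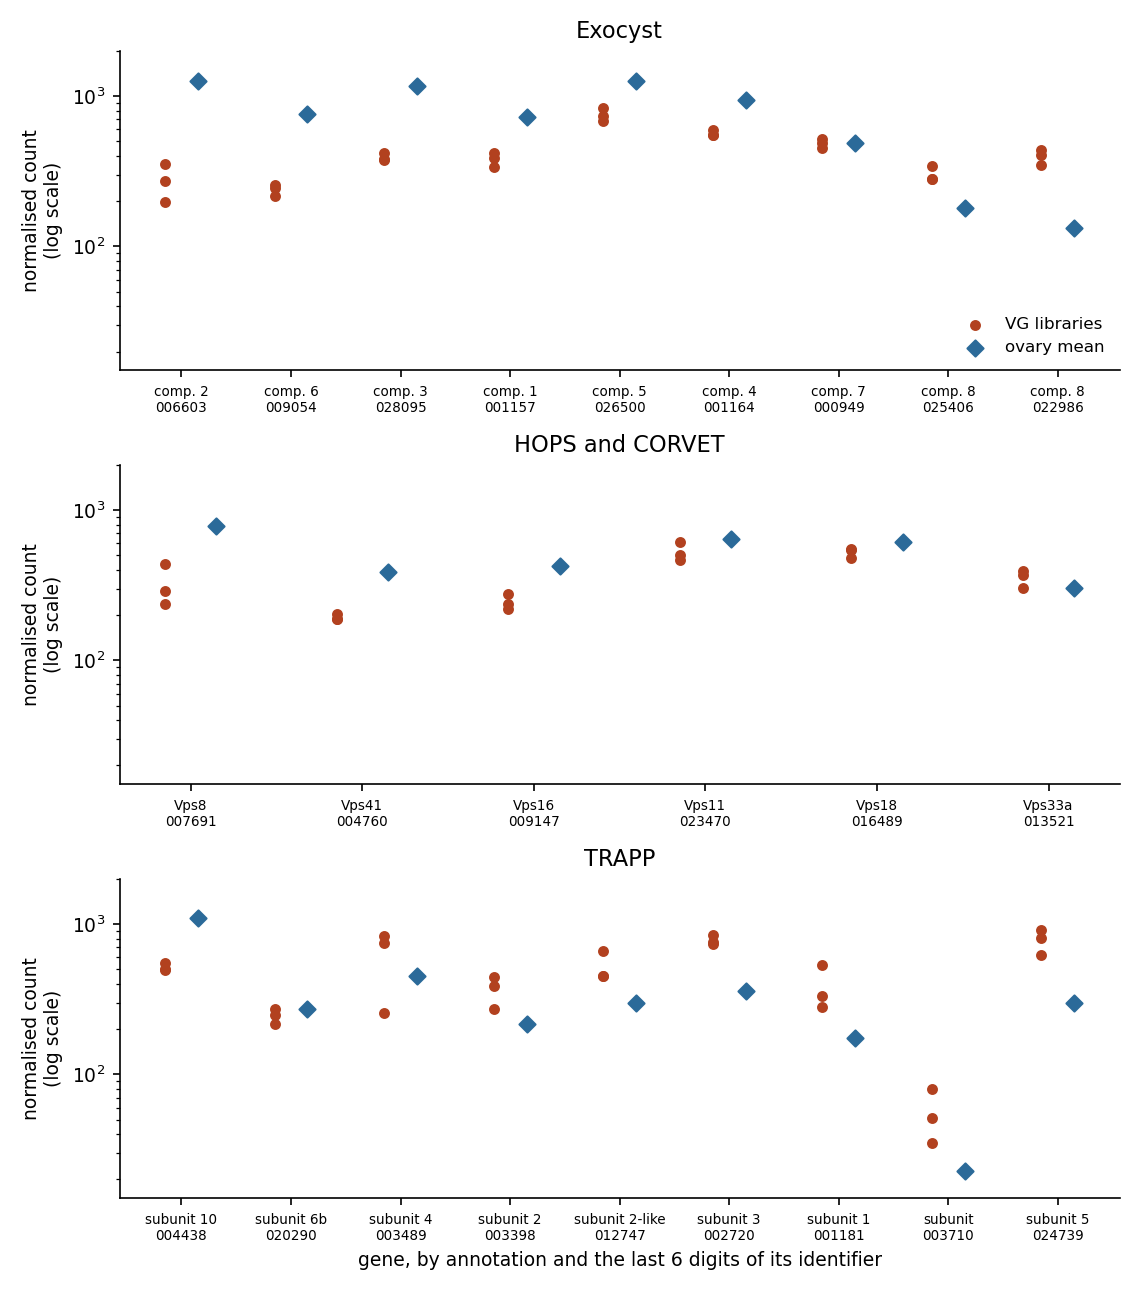
Normalised counts (vertical axis, log scale) of the genes of 3 tethers, with the 3 VG libraries as red points and the ovary mean as a blue diamond to their right, each gene named by its annotation and the last 6 digits of its identifier and ordered by its log2 ratio. In the exocyst and in HOPS and CORVET most VG points lie below the diamond, and in TRAPP most lie above it, on the deposited scale. The VG libraries of exocyst component 2 sit between 199 and 353 with the ovary mean at 1260.

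The words vacuolar protein sorting took 24 genes, most of which act at endosomes and lysosomes. On the deposited scale 11 of them lay above 0 and 13 below, where 46.6% and 53.4% of all genes did. Their median was -0.09. None was 2-fold or more higher in the VG, where the share of all genes was 31.1%, and 5 were 2-fold or more lower (20.8%, against 34.2%). Vps25, which the annotation spells with a hyphen as protein-sorting and the rule did not take, was higher by more than that and is given below. The members nearest to a 2-fold higher level in the VG were Vps13A (Nasvi2EG008412) at 4357 against 2596 (0.75) and Vps13B (Nasvi2EG024978) at 1132 against 825 (0.46), members of a family of lipid transfer proteins. Vps13D (Nasvi2EG005100), of the same family, had 682, 451 and 631 in VG libraries a, b and c against an ovary mean of 1201 (-1.03, and within 2-fold without VG library b). The positive ratios of this family turn negative with totals of all genes.

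HOPS and CORVET are the tethers of late and early endosomes. On the deposited scale 5 of their 6 genes lay below 0 (53.4% of all genes), with a median of -0.54 over the 6. In each of the 5 all VG libraries lay below the ovary mean, as in 53.9% of all recovered genes. Vps8 (Nasvi2EG007691), which belongs to CORVET, had 290, 435 and 237 in VG libraries a, b and c against 784 (-1.29). Vps41 (Nasvi2EG004760), which belongs to HOPS, had 189, 202 and 188 against 389 (-1.01, and within 2-fold without VG library a or c). The shared core protein Vps16 (Nasvi2EG009147) had 236, 220 and 275 against 422 (-0.79). Vps33A (Nasvi2EG013521) was the exception on the deposited scale, with 372, 395 and 303 against 303 (0.24, and negative with totals of all genes).

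Retromer, which returns receptors from endosomes, had Vps26 (Nasvi2EG008481) at 465, 622 and 450 in VG libraries a, b and c against an ovary mean of 1074 (-1.07, and within 2-fold without VG library c), Vps35 (Nasvi2EG005289) at 745, 1059 and 586 against 1178 (-0.56), and Vps29 (Nasvi2EG005265) at 740, 937 and 708 against 640 (0.31). On the deposited scale the core subunits of this complex thus lay on both sides of 0, and with totals of all genes all lay below it. The 5 ESCRT genes that the rule took, which act in sorting into multivesicular bodies, ranged from -0.78 to 0.42. The 3 subunits of ESCRT-II were added after their values had been seen, and they lay higher on the deposited scale, with Vps25 (Nasvi2EG026505) at 2061 in the VG against 368 in the ovary (2.48), SNF8 (Nasvi2EG007990) at 853 against 283 (1.59) and Vps36 (Nasvi2EG016548) at 283 against 258 (0.13). Of these only Vps25 stayed above 0 with totals of all genes.

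The lowest gene of the vacuolar protein sorting set was Vps72 (Nasvi2EG012164), with 275, 249 and 286 in VG libraries a, b and c against an ovary mean of 1244 (-2.21). Its yeast counterpart was named from a sorting screen but is a subunit of a chromatin remodelling complex that handles a histone variant, so it is a member by name only.

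The sorting nexins, membrane-binding proteins of endosomes, centred on 0.06 over 13 genes. In the VG 2 genes were 2-fold or more higher (15.4%, against 31.1% of all genes). Another 2 were 2-fold or more lower (15.4%, against 34.2%). SNX27 (Nasvi2EG000487), which in mammals links cargo to retromer, had 347, 393 and 223 in VG libraries a, b and c against an ovary mean of 1172 (-1.87), and SNX4 (Nasvi2EG005452), a recycling nexin, had 387, 280 and 324 against 821 (-1.31). In both every VG library was below the ovary mean. On the other side, SNX16 (Nasvi2EG007095) had 28.6, 46.6 and 17.4 in the VG libraries against an ovary mean of 11.5 and an ovary maximum of 12.4, without overlap (1.42), and SNX25 (Nasvi2EG005388) had 583, 362 and 645 against an ovary mean of 261 (1.02). SNX16 was within 2-fold without VG library b and SNX25 without VG library a or c, and both turn negative with totals of all genes. The nexins annotated as SNX2 and SNX6, partners of retromer, differed little (0.15 and 0.17).

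The widest spread was in the genes annotated as synaptic vesicle glycoprotein 2 (SV2) or its relatives. In vertebrates SV2 proteins are membrane proteins of synaptic vesicles built like sugar transporters, and the annotation of these wasp genes rests on similarity. The rule took 13, of which 11 passed the filter, and their log2 ratios ran from -2.99 to 8.32. Of these 5 were 2-fold or more higher in the VG on the deposited scale (45.5%, against 31.1% of all genes). Another 2 were 2-fold or more lower (18.2%, against 34.2%). All 5 stayed above 0 under each of the other scalings.

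The highest, Nasvi2EG006662, had 919, 180 and 460 normalised counts in VG libraries a, b and c against 1.16, 2.83 and 0.870 in ovary libraries a, b and c. Its 12 ovary reads in all stand against 695 VG reads, and the log2 ratio of 8.32 (interval 7.47 to 9.18) was 7.62 without VG library a and 8.999 without ovary library b. Nasvi2EG006660 had 269, 79.9 and 136 against 0.774, 0.810 and 1.74 (7.19). Nasvi2EG006658, annotated as 2C, had 128, 75.5 and 174 against 9.29, 2.43 and 0.435 (4.96, and 6.46 without ovary library a). These 3 genes carry neighbouring numbers in the gene set, and in all of them the lowest VG library was far above the highest ovary library.

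Nasvi2EG007633 had 888, 571 and 1436 in the VG libraries against 40.6, 21.1 and 16.5 in the ovary libraries (5.21), and Nasvi2EG008969 had 513, 215 and 551 against 19.7, 17.8 and 10.9 (4.72). VG library b was the lowest of the VG libraries in each of these 5 genes. It was the lowest for 33 of the 93 recovered members and for 3357 of the 8318 recovered genes of the whole table. The level in the ovary was 0.312% to 3.79% of that in the VG for the 5 genes, against 0.00266% to 0.00306% for the 3 venom markers. The study ranked these 3 among the highest genes of the VG with the same libraries, so their low ovary share is no independent measure.

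The next number to Nasvi2EG008969, Nasvi2EG008968, went the other way, with 38.1, 17.8 and 17.4 in the VG libraries against 41.4, 40.1 and 48.3 in the ovary libraries (-0.82, without overlap). The lowest member of the whole set was also of this family. Nasvi2EG009222 had 223, 8.88 and 108 in VG libraries a, b and c against an ovary mean of 901, a log2 ratio of -2.99 that was -3.95 without VG library a. Nasvi2EG016291 had 91.5, 66.6 and 62.7 against 214 (-1.54). As to the neurons that these gene names refer to, the 6 neuron markers summed to 5822 in the VG against 7879 in the ovary, with synaptotagmin 1 at 3217 against 181 and *elav* at 889 against 4972. Their part in the SV2 values was not tested.

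**Figure D4:**
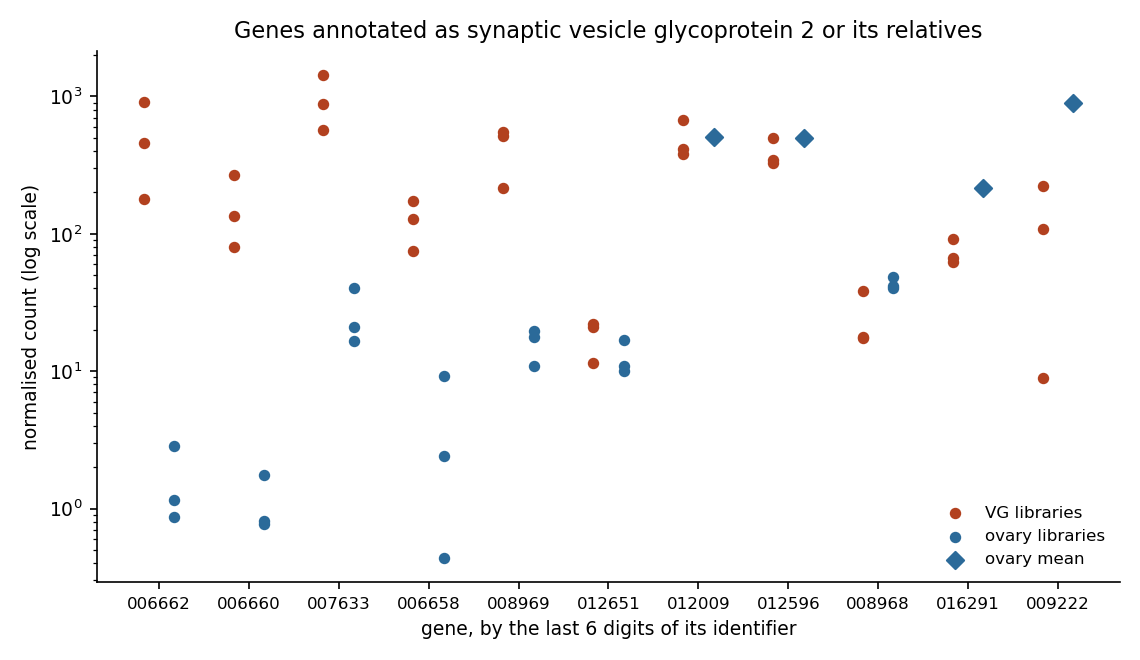
Normalised counts (vertical axis, log scale) of the 11 genes annotated as synaptic vesicle glycoprotein 2 or its relatives that passed the filter, by the last 6 digits of the identifier and in falling order of the log2 ratio. Red points are the 3 VG libraries and, to their right, blue points are the 3 ovary libraries, or a blue diamond the ovary mean where the libraries could not be recovered. The 5 genes at the left have VG libraries between 75.5 and 1436, all above their ovary libraries, and the gene at the right has its VG libraries between 8.88 and 223 under an ovary mean of 901.

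Across all members with VG libraries recovered, each VG library lay above the ovary mean for 33 of 93 (35.5%), below it for 38 (40.9%) and on both sides for 22, where 31.6% and 53.9% of all recovered genes lay above and below. Of the 18 members with both tissues recovered, 10 had each VG library above each ovary library (55.6%, against 52.2% of 3742 genes), 3 had each below (16.7%, against 26.7%), and 5 overlapped. These 18 are the members with low ovary means and do not stand for the others. An exact permutation test of 3 libraries against 3 cannot give a two-sided p under 0.1, so no p is given for any of these genes.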

How the data were processed

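The study made stranded, poly-T selected RNA-seq libraries from 3 VG and 3 ovary pools. Per its methods and the labels, reads were trimmed with fastq-mcf and SolexaQA, mapped with TopHat, and counted with strand information on exons of OGS2 genes with HTSeq. One VG library had a higher share of ribosomal reads, and which of libraries a, b and c it is was not tested. No source used here names the genome build. The deposited values are a signal: the authors scaled the counts by DESeq size factors and averaged them over the 3 libraries of each tissue. The table also holds the authors' fold changes, log2 fold changes, p-values and adjusted p-values, which were not used. The tissue of each mean came from a list in the supplement whose headings name the tissues, and 1998 of its 1998 genes matched within a relative tolerance of 0.0001.

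The members and lists were chosen with earlier results of these data known, and the COPII, ESCRT-II and other SNARE lists, the complexes and the genes named outside the rule after their values had been seen. Rows that the list words for p24, ERGIC and the KDEL receptor took by their letters alone were left out. The rule for named genes took all COPI and COPII members past the filter, in every other role the 2 highest and the 2 lowest log2 ratios, over all members the 10 highest and the 10 lowest, and members with no read in 1 tissue, of which there were none past the filter. Of the member genes, 44 were named by this rule. With 1 mean per tissue no test was run on the tissue difference, and a difference counts at 2-fold or more.

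A mean is a sum of whole reads of the 3 libraries times a step for each library. It was taken as recovered where 1 combination fitted the 10 printed digits, which held for all VG means up to 1000 and all ovary means up to 100, and for 37.5% of ovary means from 100 to 300. The size factors were 0.525, 0.450 and 0.287 for VG libraries a, b and c and 2.58, 2.47 and 2.30 for ovary libraries a, b and c. Intervals at 95% take every read at the largest step and cover counting error only. A floor of 3 reads is 3.49 normalised counts in the VG and 0.435 in the ovary. Recovery and counting were tested on simulated data. Sequences, gene lengths and coordinates were not used here, and the 5 marker lists beside the venom list came from general knowledge. The 3 venom markers are genes that the study ranked among the highest in the VG with these same libraries. On the deposited scale the KDEL receptor, NSF attachment, dynamin, ADP-ribosylation factor and vacuolar proton pump lists had medians of 1.12 (5 genes), 1.34 (2 genes), -0.89 (3 genes), 0.55 (19 genes) and 0.63 (17 genes). Scripts ran in Python 3.11.15 with pandas 2.3.3, numpy 2.4.6, matplotlib 3.10.9 and scipy 1.17.1.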

Additional observations from a re-analysis of the deposited data

How the results depend on the processing

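No paired analysis was possible because the table holds tissue means, and the libraries recovered from them carry no replicate number. The alternatives were 3 other scalings, no filter or a minimum of 100, pseudocounts of 1 and 10, 1.5-fold and 4-fold limits, other memberships and leaving out each library. Centred on the median of all genes, the median log2 ratio was 0.40 for the members, 1.38 for COPI and 1.44 for COPII. With totals of all genes these were -2.13, -1.15 and -1.10, reversed, and 7 members were 2-fold or more higher in the VG and 111 lower. With totals that leave out genes of a log2 ratio of 5 or more they were -0.081 (reversed), 0.90 and 0.96, and 33 members were 2-fold or more lower. At 1.5-fold 51 members were higher in the VG and 33 lower, and at 4-fold 12 were higher and 3 lower, as wider and narrower limits must give. Of the 18 members with both tissues recovered, 13 did not overlap, and 13 to 16 did not with 1 library left out. Of the 93 with VG libraries recovered, 71 lay on one side of the ovary mean, and 74 to 83 did with 1 VG library left out. Leaving out a library can only keep or raise these 2 counts, so they say nothing of stability. The median of the members was 0.26 without filter, 0.19 with a minimum of 100, 0.22 without the SV2 and Sec22b genes and 0.28 with the COPII, ESCRT-II and SNARE rows added after their values had been seen. The other alternatives moved the counts by less than 1.5 times. The step of 1 VG read, from 0.635 to 1.16 in a tissue mean, against 0.129 to 0.145 in the ovary, limits the low genes. Without filter, genes at or under 3 reads in both tissues were left out, since they allow no ratio.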
